A study of Homo sapiens with 25 samples.

Results

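The 10 genes described here encode the enzymes that make purine nucleotides from small precursors up to GMP, together with the enzymes that supply the activated ribose on which the purine ring is built. They were taken by symbol (PRPS1, PRPS2, PPAT, GART, PFAS, PAICS, ADSL, ATIC, IMPDH2 and GMPS) from a table of 31919 genes. The list follows the steps of the pathway, and it was drawn up with earlier results of these data known. RNA was measured in DND-41, an established line of human T-cell acute lymphoblastic leukaemia. The medium's histidine, an essential amino acid, was set at 100%, 50%, 25% or 12.5% of the full level or left out. On day 6 the 100%, 50%, 12.5% and no-histidine groups each held 3 libraries and the 25% group held 2, while on day 9 the 100%, 25% and 12.5% groups each held 3 and the 50% group held 2. No day 9 group without histidine is analysed here. All 9 groups come from this single line with no other agent named, and the sample labels do not tell whether the replicates of a group were separate cultures, so p-values measure only the spread between these libraries, which may be technical. Replicate 1 without histidine carries day 6 in its title and day 9 in its time label, and it was kept at day 6. The series text names days 3 and 6 where the samples name days 6 and 9, and the sample labels were followed.

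Purines are assembled atom by atom on phosphoribosyl pyrophosphate (PRPP). PRPS1 and PRPS2 are the isozymes that make PRPP from ribose phosphate. PPAT takes the committed step from PRPP, and GART, PFAS, PAICS, ADSL and ATIC, some of them multifunctional, then complete the ring of IMP, with formyl groups given by folate. IMP is the branch point: IMPDH2 oxidises it and GMPS aminates the product to GMP, while adenylosuccinate synthase and ADSL lead to AMP. Dividing lymphoid cells rely heavily on this route, and drugs against leukaemia such as mercaptopurine act on it.

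Levels are normalized counts per gene. Changes are differences of mean log2(normalized count + 1), tested with limma's moderated test, and a gene is said to have risen or fallen where the Benjamini-Hochberg adjusted p over the 18799 tested genes was under 0.05. Group values are means ± SD. The values are scaled to each library, so fewer cells expressing a gene and less RNA per cell cannot be told apart. The totals ran from 13.6 M to 16.1 M normalized counts per library, and original read totals were not recovered. A fixed list of 10 T-line genes, CD3D, CD3E and CD7 among them, summed to between 38263 and 54812 per library. In the 50% group of day 9, 1 gene of that list was at 0 in every library. CD3D, CD3E, CD7 and TLX3, the last not on the list, were abundant in every library. So was CD79A, a B-lineage gene, at 9400.4 to 22251. The keratin sum (KRT8, KRT18 and KRT19) passed 100 in 6 libraries, 2 each of 100% and 50% on day 6 and of 25% on day 9. Its highest value, 1406, was in replicate 2 at 100% on day 6, and it was at most 60.3 in the libraries that did not pass 100. All 10 enzyme genes were tested and none was at 0 in any library. Of the 10, 7 had their highest value in the same library, replicate 2 at 100% on day 9.

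Against 100% histidine of the same day, most of these genes fell at 12.5%, 4 or 5 of the 10 fell at 25%, and none passed at 50%. On day 6, 7 of the 10 fell at 12.5% and none rose, where 27% of all tested genes changed and 15.3% fell. At 25% 1 rose and 4 fell, against a background of 13.7%, with 6.79% rising and 6.92% falling. Without histidine 4 fell and none rose, against 29.8% of all genes changing and 16.5% falling. On day 9, 6 fell at 12.5%, where 20.8% of genes changed and 11.5% fell. At 25% on day 9 1 rose and 5 fell, where 18.2% of genes changed, 9.4% rising and 8.76% falling. The median log2 change of the 10 genes was -0.38 at 12.5% and -0.20 without histidine on day 6, where the medians over all tested genes were 0.04 and 0.03. On day 9 it was -0.41 at 12.5% and -0.36 at 25%, beside 0.03 and 0.00 over all tested genes. The comparisons of a day share their 100% libraries.

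Properties of the libraries also differed from 100% on day 6, both at 12.5% and without histidine. The normalized totals were 15.32 M to 15.58 M at 100%, 13.57 M to 14.83 M at 12.5% and 13.65 M to 14.96 M without histidine. The summed share of the 10 genes was 0.128% to 0.136% of the total at 100%, 0.0973% to 0.111% at 12.5% and 0.112% to 0.118% without histidine. Genes detected at a normalized count of 10 or more numbered 14834 to 15572 at 100% and 15594 to 16263 at 12.5%. Without histidine they numbered 15254 to 16034, which overlapped 100%. The level of the gene listed as 5_8S_rRNA, a ribosomal RNA, was 153 to 1181 at 100%, 145 to 157 at 50% and 314 to 674 at 25%. It was 74.8 to 88.2 at 12.5% and 120 to 242 without histidine, where only the 12.5% range lay clear of that at 100%. MKI67, a gene of dividing cells, was at 20250 to 24195 at 100%, at 27390 to 32096 at 12.5% and at 7828 to 11240 without histidine. The sum of MKI67, TOP2A and MCM2, all genes of dividing cells, was at 47400 to 52948 at 100% on day 6. It was at 45593 to 50993 at 12.5% and at 16154 to 20571 without histidine. So at 12.5% on day 6 the sum overlapped the range at 100% where MKI67 alone lay above it. On day 9 the sum was at 46151 to 47632 at 100%. At 12.5% on day 9 it lay below that without overlap, at 32990 to 39360, and at 25% above it, at 52283 to 53586. The part of these properties in the changes was not tested, beyond the fits with keratin or 5_8S_rRNA as a covariate.

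**Figure D1:**
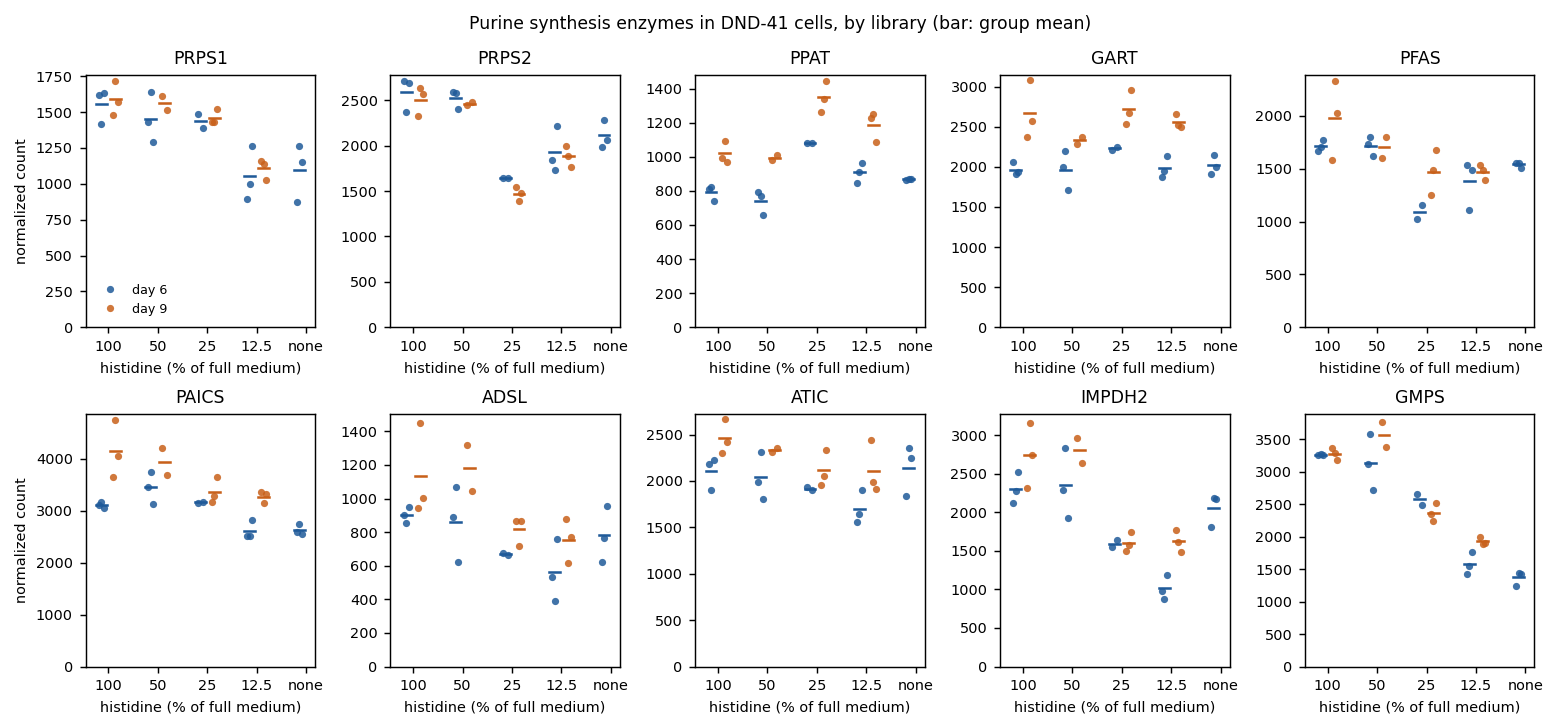
Normalized count of each of the 10 enzyme genes (y axis, from 0) at each histidine level (x axis), with day 6 in blue and day 9 in orange; points are libraries and bars group means. On day 6 GMPS stepped down without overlap from 50% to 25% and to 12.5%. Its libraries without histidine, at 1244 to 1439.5, overlapped those at 12.5%. IMPDH2 was lowest at 12.5% on day 6 and PPAT was highest at 25% on day 9.

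The windows before the start sites of the PRPP synthetases, of the committed-step gene and of GMPS are shown first, because the results on PRPP supply, on the committed step and on the last step to GMP turn on these genes. They are RefSeq sequences on GRCh38.p14, where 8 of the 10 genes had an entry (12 start sites), and IMPDH2 and ADSL had none. Capitals mark the GC box GGGCGG, the E-box CACGTG that MYC and related factors bind, and CCAAT, on either strand.
PRPS1, chrX:107628260-107628509, + strand: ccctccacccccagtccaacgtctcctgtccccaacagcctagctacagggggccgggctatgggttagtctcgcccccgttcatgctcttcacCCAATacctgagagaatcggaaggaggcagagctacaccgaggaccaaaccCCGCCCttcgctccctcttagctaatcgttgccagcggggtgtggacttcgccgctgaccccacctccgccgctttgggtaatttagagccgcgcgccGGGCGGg
PRPS2, chrX:12791162-12791411, + strand: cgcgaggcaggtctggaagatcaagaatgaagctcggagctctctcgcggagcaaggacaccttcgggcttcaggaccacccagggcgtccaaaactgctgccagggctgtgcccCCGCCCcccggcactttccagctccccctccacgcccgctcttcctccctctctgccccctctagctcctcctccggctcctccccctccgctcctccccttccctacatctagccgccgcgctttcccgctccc
PPAT and PAICS, the stretch between both starts, chr4:56435616-56435751, - strand: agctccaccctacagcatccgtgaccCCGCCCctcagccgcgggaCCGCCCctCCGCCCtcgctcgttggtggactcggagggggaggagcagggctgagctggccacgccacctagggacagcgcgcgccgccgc
GMPS, chr3:155870400-155870649, + strand: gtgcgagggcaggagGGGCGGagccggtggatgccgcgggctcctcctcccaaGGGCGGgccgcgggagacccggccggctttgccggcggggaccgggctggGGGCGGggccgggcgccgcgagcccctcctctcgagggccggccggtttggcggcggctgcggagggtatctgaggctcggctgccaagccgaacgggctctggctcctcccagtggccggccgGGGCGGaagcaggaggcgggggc

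In full windows, which run from 250 bases before to 50 after a start, all 8 genes held GGGCGG, 3 held CACGTG (PPAT, PAICS and ATIC) and 2 held CCAAT (PRPS1 and GART), each in at least 1 window. Counted by window, GGGCGG was in 9 of the 12, CACGTG in 3 and CCAAT in 4. Over all 35116 RefSeq windows the shares were 45.0% for GGGCGG, 7.26% for CACGTG and 34.6% for CCAAT. The NRF1 core CGCATGCG and the amino acid response motif TGATGNAA were in no window of these genes, and in 2.02% and 3.62% of all windows. A match is a run of letters and shows no binding.

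PRPS1 and PRPS2, which make PRPP, both fell at 12.5% histidine but parted at 25%. PRPS1 lies at chrX:107628424-107651026 on the + strand and PRPS2 at chrX:12791355-12824222 on the + strand (GENCODE 29 on GRCh38, as for all positions of genes below). On day 6 PRPS1 was at 1618, 1417 and 1633 at 100%, at 896, 997 and 1262 at 12.5% and at 872, 1261 and 1151 without histidine. Every library of both low groups lay below every 100% library. The log2 change was -0.58 ± 0.13 (SE) at 12.5% (adjusted p = 0.00132) and -0.52 ± 0.13 without histidine (adjusted p = 0.00248). At 25% the values of PRPS1, 1489 and 1391, overlapped those at 100%, and the change of -0.11 did not pass (adjusted p = 0.697).

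PRPS2 was at 2718, 2367 and 2693 at 100% on day 6, at 1639.7 and 1643 at 25%, at 1838, 1736 and 2218 at 12.5% and at 1988, 2289 and 2063 without histidine. The lowest libraries of PRPS2 were thus those at 25%, not those at 12.5% or without histidine. It fell by 0.66 on the log2 scale at 25% (SE 0.10, adjusted p = 7.60e-05), by 0.43 at 12.5% (adjusted p = 0.000856) and by 0.29 without histidine (adjusted p = 0.0139). On day 9 the order was the same: PRPS2 was at 2329.8, 2632 and 2566 at 100%, at 1541, 1395 and 1477 at 25% and at 2001, 1884 and 1762 at 12.5%. No libraries of the 3 groups overlapped. The changes against 100% were -0.77 ± 0.09 at 25% (adjusted p = 1.70e-06) and -0.41 ± 0.09 at 12.5% (adjusted p = 0.00155). In a comparison added after the values were seen, PRPS2 was 0.36 higher at 12.5% than at 25% on day 9 (adjusted p = 0.0162), where 1 of the 10 genes rose and none fell, beside 6.82% of all tested genes changing and 2.4% rising. On day 6 the same difference was 0.23 (adjusted p = 0.121). The day 9 call was lost without replicate 2 at 25% or replicate 1 at 12.5%, without the keratin-high libraries and with either covariate.

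PRPS1 on day 9 was at 1478, 1719 and 1571 at 100%, 1431, 1429.9 and 1520.4 at 25%, and 1159, 1139 and 1024 at 12.5%. It fell at 12.5%, by 0.52 (SE 0.13, adjusted p = 0.00408), and the 25% difference of -0.12 did not pass (adjusted p = 0.591). Both genes kept their call at 12.5% on both days under all 38 alternatives, as PRPS2 did at 25%. The call of PRPS2 without histidine was lost without replicate 1 or 3 at 100% or replicate 1 of the no-histidine group, and without the keratin-high libraries.

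The opposite order of the isozymes showed in their ratio within each library. Transcript length enters such a ratio, so only its differences between groups are read. The log2 ratio of PRPS1 over PRPS2 was -0.74 ± 0.01 at 100%, -0.19 ± 0.07 at 25%, -0.88 ± 0.13 at 12.5% and -0.96 ± 0.20 without histidine on day 6. On day 9 it was -0.66 ± 0.05 at 100%, -0.01 ± 0.08 at 25% and -0.77 ± 0.03 at 12.5%. All 5 libraries at 25% lay above all other libraries in this ratio, and the 25% tests were added after that was seen. In each of these 5 comparisons with 100% the groups did not overlap, and the two-sided exact permutation test gave p = 0.1, the smallest that 3 against 3, or 2 against 3, libraries allow. The transcripts of PRPS2 share no 31-base word with another gene, whereas 7.74% of those of PRPS1 are also found elsewhere, mainly in PRPS1L1 and the pseudogene PRPS1P2.

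**Figure D2:**
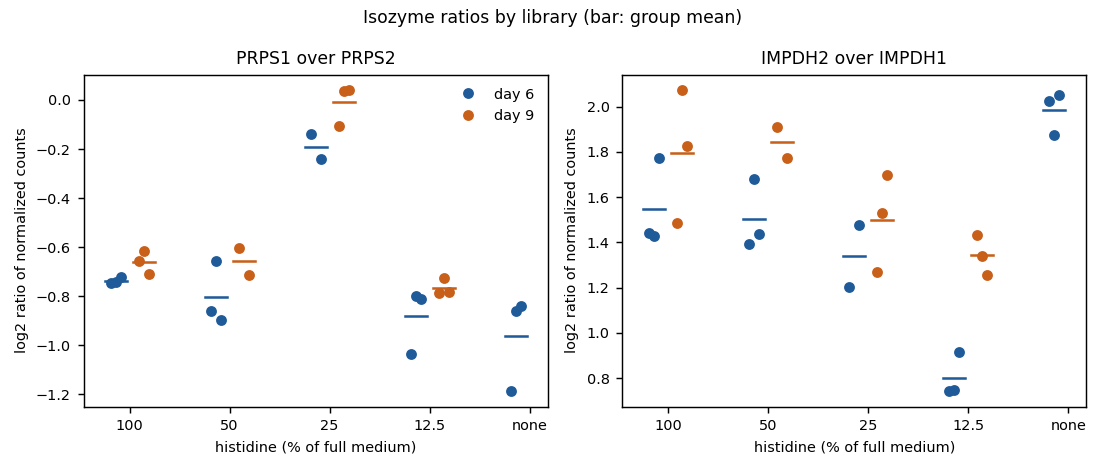
The log2 ratio of normalized counts of PRPS1 over PRPS2 (left) and of IMPDH2 over IMPDH1 (right) at each histidine level, with day 6 in blue and day 9 in orange; points are libraries and bars group means. The 25% libraries, from -0.24 to 0.04, stand above the other levels on the left, and on the right the 12.5% libraries of day 6, from 0.74 to 0.91, are the lowest and the no-histidine libraries, from 1.87 to 2.05, lie above all other day 6 libraries.

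PPAT, the amidotransferase of the committed step, was the only one of the 10 genes to rise against 100% histidine, and it did so at 25% on both days. It lies at chr4:56393362-56435615 on the - strand. On day 6 it was at 812, 825 and 740.2 at 100%, 1078 and 1083 at 25%, 849, 912 and 963 at 12.5%, and 863, 872 and 871 without histidine. All libraries below 50% histidine exceeded all those at 100%. The rise was 0.45 ± 0.10 at 25% (adjusted p = 0.00251), and the differences of 0.20 at 12.5% (adjusted p = 0.1003) and 0.13 without histidine (adjusted p = 0.272) did not pass. On day 9 it was at 995, 1095 and 971 at 100%, 1265, 1338 and 1443 at 25%, and 1227, 1250.4 and 1088 at 12.5%. The rise was 0.40 ± 0.09 at 25% (adjusted p = 0.00176), with no overlap, and the difference of 0.22 at 12.5% did not pass (adjusted p = 0.0765). Under upper-quartile rescaling, quantile normalization and library weights the 12.5% differences passed on both days as rises. The day 9 rise at 25% did not pass without the keratin-high libraries, which leaves 1 library at 25%.

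PAICS, the bifunctional carboxylase and synthetase next to PPAT, went the other way on day 9. It lies at chr4:56435741-56464579 on the + strand, and its RefSeq start at 56435752 is 137 bases from that of PPAT, so both genes are read outward from the stretch printed above. Their windows share 236 bases, including 1 CACGTG site, which is 182 to 177 bases before the PPAT start and at bases 40 to 45 counted from the PAICS start. On day 9 PAICS was at 3650.2, 4748 and 4043 at 100%, at 3156, 3277 and 3650.4 at 25% and at 3353, 3139 and 3315 at 12.5%. The 12.5% libraries lay below the 100% ones, while at 25% the ranges overlapped. It fell by 0.34 at 12.5% (SE 0.09, adjusted p = 0.00922) and by 0.30 at 25% (SE 0.09, adjusted p = 0.0228). Without replicate 2 at 100% neither call was made, and that at 25% was also lost without replicate 1 or replicate 2 at 25%, without the keratin-high libraries and with only the compared groups in the fit.

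On day 6 PAICS was at 3108, 3166 and 3052 at 100%, 3143 and 3173 at 25%, 2513, 2505 and 2816 at 12.5%, and 2587, 2741 and 2552 without histidine. The 25% libraries were at the level of 100% (log2 change 0.02, adjusted p = 0.929) and the lower groups stood below it without overlap. The falls of 0.25 at 12.5% (adjusted p = 0.0395) and 0.24 without histidine (adjusted p = 0.0439) were close to the threshold. The first was lost under 12 of the 38 alternatives and the second under 19. Of the transcript words of PAICS 14.5% occur in other genes, mainly the pseudogene PAICSP4, and of those of PPAT 11.9%, mainly PPATP1, so reads may be divided with these copies.

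GART, PFAS, ADSL and ATIC, which carry the ring to IMP together with PAICS, changed less evenly. GART, a multifunctional enzyme of the early ring steps that uses folate, lies at chr21:33503931-33543491 on the - strand and passed against 100% at no level. On day 6 it was at 2064, 1906 and 1930.4 at 100%, at 1874, 1954 and 2132 at 12.5% and at 1906, 2154 and 2003 without histidine, with overlapping ranges. Its log2 change was 0.01 at 12.5% (95% interval -0.19 to 0.21) and 0.04 without histidine (-0.16 to 0.24). On day 9 the change at 12.5% was -0.06 (-0.26 to 0.14). It overlaps SON on the other strand.

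PFAS, which adds an amide nitrogen from glutamine, lies at chr17:8247618-8270491 on the + strand, overlaps CTC1 on the other strand and was lowest at 25% on day 6. There it was at 1665, 1708 and 1773 at 100%, 1023 and 1156 at 25%, 1539.7, 1110.5 and 1492 at 12.5%, and 1558, 1558 and 1504 without histidine. All low libraries were below all 100% libraries, but replicate 2 at 12.5% was well below the other two of its group. It fell by 0.66 at 25% (SE 0.14, adjusted p = 0.00255, lost without replicate 2 at 25% and without the keratin-high libraries), and the differences of -0.33 at 12.5% (adjusted p = 0.0593) and -0.16 without histidine (adjusted p = 0.399) did not pass. On day 9 it was at 1579, 2326 and 2023 at 100%, 1252, 1487 and 1676 at 25%, and 1534, 1484 and 1391 at 12.5%. It fell by 0.42 at 25% (adjusted p = 0.0236) and by 0.41 at 12.5% (adjusted p = 0.0230). Neither call was made without replicate 2 or without replicate 3 at 100%, and each was also lost without 2 of the 3 low-histidine libraries in turn, replicates 1 and 2 at 25% and replicates 2 and 3 at 12.5%. The 25% call was further lost without the keratin-high libraries, with the keratin covariate and with only the compared groups in the fit, and the 12.5% call with the 5_8S_rRNA covariate.

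ADSL, the lyase that acts both before IMP and in the step to AMP, had the widest spread between replicates. It lies at chr22:40346500-40390463 on the + strand. Its day 6 values were 902, 853 and 952 at 100%, 675 and 662 at 25%, 535, 390.4 and 761 at 12.5%, and 624, 765 and 955 without histidine. The 12.5% and 25% libraries were below the 100% ones and the no-histidine libraries overlapped them. It fell by 0.73 at 12.5% (SE 0.22, adjusted p = 0.0132), a call lost without replicate 2 at 12.5%, without the keratin-high libraries and with the 5_8S_rRNA covariate. On day 9 it was at 942, 1452 and 1003 at 100% and 878, 617 and 772 at 12.5%, and the change of -0.57 did not pass (adjusted p = 0.0629). ADSL overlaps SGSM3 and AL022238.4 on its own strand and 21.8% of its transcript words occur in other genes, AL022238.4 above all, so its values are uncertain.

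ATIC, the bifunctional enzyme that closes the ring to IMP, lies at chr2:215311817-215349773 on the + strand. Its libraries of day 6 were at 2186, 1906 and 2224 at 100%, 1554, 1647 and 1899 at 12.5%, and 1837, 2350.3 and 2245 without histidine. The 12.5% libraries were just below the 100% ones, and those without histidine overlapped them. The fall of 0.31 at 12.5% (SE 0.11, adjusted p = 0.0456) was lost under 19 of the 38 alternatives. On day 9 its change at 12.5% was -0.23 (95% interval -0.46 to 0.01, adjusted p = 0.169).

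IMPDH2, the rate-limiting enzyme of guanine nucleotide synthesis, had the deepest fall of the 10 genes at 12.5% on day 6 and no call without histidine. It lies at chr3:49024325-49029408 on the - strand. On day 6 it was at 2116, 2275 and 2519.7 at 100%, 2289, 2834 and 1927 at 50%, 1544 and 1636 at 25%, 980.2, 872 and 1184 at 12.5%, and 1805, 2182 and 2177 without histidine. The level stepped down from 50% to 12.5% with no overlap, and 2 of the 3 no-histidine libraries were within the range of 100%. It fell by 1.19 at 12.5% (SE 0.13, adjusted p = 8.13e-07), to 43.9% of the mean at 100%, and by 0.53 at 25% (SE 0.15, adjusted p = 0.0187). The call at 25% was lost without either library at 25%, without replicate 3 at 100%, without the keratin-high libraries and with the keratin covariate. Without histidine the change was -0.17 (95% interval -0.44 to 0.11, adjusted p = 0.389).

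The difference between no histidine and 12.5% was tested directly. IMPDH2 was 1.03 ± 0.13 higher on the log2 scale without histidine than at 12.5% on day 6 (adjusted p = 8.12e-06), and it was the only one of the 10 genes to pass, against 15.3% of all tested genes changing and 7% rising. ATIC was 0.33 higher (adjusted p = 0.0506, passing under 12 of the 38 alternatives) and ADSL 0.51 higher (adjusted p = 0.120), neither past the threshold. GMPS, the next enzyme, was 0.20 lower (adjusted p = 0.157).

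On day 9 IMPDH2 was at 2321, 3162 and 2743 at 100%, 2969 and 2636 at 50%, 1498, 1573 and 1747 at 25%, and 1771, 1612 and 1487 at 12.5%. The 25% and 12.5% libraries overlapped each other and lay below all libraries of the upper levels. It fell by 0.76 at 25% (adjusted p = 0.000233) and by 0.75 at 12.5% (adjusted p = 0.000282). IMPDH2 rose by 0.69 from day 6 to day 9 at 12.5% (adjusted p = 0.00350), in a comparison added after the values were seen. The difference between days in the effect of 12.5%, 0.45 (95% interval 0.05 to 0.84), did not pass (adjusted p = 0.430). IMPDH2 overlaps an antisense gene, AC137630.3, with which it shares 2.11% of its transcript words, and it shares none with IMPDH1.

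IMPDH1, the isozyme of IMPDH2, is not among the 10 genes but bears on this step. In the day 6 libraries it was at 779, 844 and 736 at 100%, 586, 519 and 627 at 12.5%, and 443, 594 and 524 without histidine. It fell at both, by 0.45 at 12.5% (adjusted p = 0.00380) and by 0.60 without histidine (adjusted p = 0.000161). The log2 ratio of IMPDH2 over IMPDH1 was therefore 1.55 ± 0.20 at 100%, 0.80 ± 0.10 at 12.5% and 1.98 ± 0.10 without histidine on day 6. On day 9 it was 1.80 ± 0.30 at 100% and 1.34 ± 0.09 at 12.5%. In these 3 comparisons with 100% the groups did not overlap, and the two-sided exact permutation test gave p = 0.1, again the smallest possible. At 25% the ratio overlapped that at 100% on both days (exact p = 0.6 on day 6 and 0.3 on day 9).

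GMPS, which aminates XMP to GMP, fell at every level below 50% on both days, and was the gene of the 10 with the deepest fall without histidine. It lies at chr3:155870536-155944026 on the + strand. On day 6 it was at 3251, 3269 and 3248 at 100%, 2653 and 2493 at 25%, 1430.2, 1539.8 and 1763 at 12.5%, and 1244, 1439.5 and 1429 without histidine. Every library of each level below 50% lay below those at 100%, and those without histidine overlapped those at 12.5%. The change was -0.34 ± 0.10 at 25% (adjusted p = 0.0288), -1.05 ± 0.09 at 12.5% (adjusted p = 2.97e-08) and -1.25 ± 0.09 without histidine (adjusted p = 3.34e-10), the last leaving 42.1% of the mean at 100%. The call at 25% was lost without any 1 of the 3 libraries at 100% or of the 2 at 25%, without the keratin-high libraries, with the keratin covariate, with no filter on low values and with no trend in the variance.

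On day 9 GMPS was at 3366, 3279 and 3181 at 100%, at 2346, 2240.2 and 2512 at 25% and at 1998, 1889 and 1903 at 12.5%. No libraries of these 3 groups overlapped. It fell by 0.47 at 25% (SE 0.09, adjusted p = 0.000734) and by 0.76 at 12.5% (SE 0.09, adjusted p = 2.70e-06). The calls of GMPS and IMPDH2 at 12.5% on both days, and of GMPS without histidine, were made under all 38 alternatives. Of the transcript words of GMPS 7.93% occur in other genes, mainly the pseudogene GMPSP1.

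**Figure D3:**
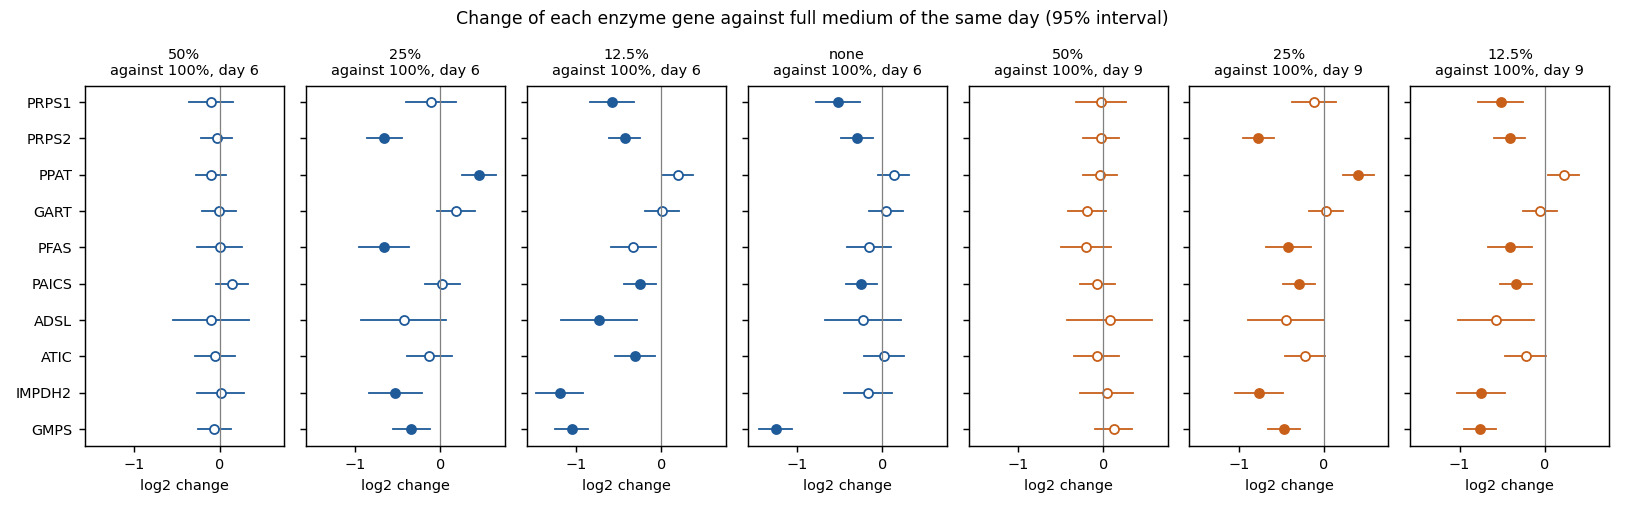
The log2 change of each of the 10 genes (rows) against 100% histidine of the same day (x axis), with 95% intervals, for 50%, 25%, 12.5% and no histidine on day 6 (blue) and 50%, 25% and 12.5% on day 9 (orange); filled points passed an adjusted p of 0.05. No point is filled at 50%, PPAT is the only filled point to the right of 0, and GMPS is filled to the left at every lower level.

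At 50% histidine none of the 10 genes passed on either day. On day 6 no gene of the whole table passed (0% called), 695 genes had an unadjusted p under 0.05 in limma, and none of the 10 genes was among them. The log2 changes of the 10 lay between -0.10 and 0.15, with interval bounds from -0.55 to 0.34. On day 9, where 0.00532% of genes were called, they lay between -0.20 and 0.12, with bounds from -0.49 to 0.58. ADSL had the lowest bound of day 6, and its day 9 interval ran from -0.42 to 0.58.

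A slope over 100%, 50%, 25% and 12.5% used all 4 levels at once. On day 6 the slope over the 4 levels was negative for 8 genes and positive for PPAT, and that of GART did not pass. The background was 28.9% of all tested genes, 13% rising and 15.9% falling. The steepest slopes per halving were -0.41 ± 0.04 for IMPDH2 (adjusted p = 1.68e-07) and -0.34 ± 0.03 for GMPS (adjusted p = 1.14e-08), and that of PPAT was 0.11 ± 0.03 (adjusted p = 0.00312). On day 9 7 fell, PPAT rose and GART and ATIC did not pass, against 27.3%, with 12.9% rising and 14.4% falling. The slopes were then -0.30 ± 0.04 for IMPDH2 and -0.29 ± 0.03 for GMPS. On day 6 the falling slope of ATIC was lost under 13 of the 38 alternatives and that of PAICS under 9. A straight slope does not test each halving, and none of these genes passed at 50% against 100% on either day. It also leaves out that 25% was the lowest level for PRPS2 on both days and for PFAS on day 6, and the highest for PPAT on both days.

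Between neighbouring low levels, in comparisons added after the values were seen, PRPS1, IMPDH2 and GMPS were lower at 12.5% than at 25% on day 6, with none higher, against a background of 17.8%, with 10.7% falling. PRPS1 fell by 0.47 (adjusted p = 0.0235, lost without either library at 25%, without replicate 1 or 2 at 12.5%, with the 5_8S_rRNA covariate and with only the compared groups in the fit), IMPDH2 by 0.66 (adjusted p = 0.00369, lost with the 5_8S_rRNA covariate) and GMPS by 0.71 (adjusted p = 7.38e-05). On day 9 the differences were -0.40 for PRPS1 (adjusted p = 0.0553), 0.02 for IMPDH2 (adjusted p = 0.969) and -0.29 for GMPS (adjusted p = 0.0576). Of the 38 alternatives 10 made the PRPS1 call on day 9 and 9 the GMPS call. None of the 10 genes passed in the test of whether the 12.5% or the 25% effect differed between days, for which 0.0638% and 0.00532% of genes were called.

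From day 6 to day 9 PPAT, GART and PAICS rose at full histidine. The rise of PPAT was 0.36 (SE 0.09, adjusted p = 0.0270), that of GART 0.44 (SE 0.10, adjusted p = 0.0162) and that of PAICS 0.41 (SE 0.09, adjusted p = 0.0166), from the library values given above for PPAT and PAICS, and for GART from 2064, 1906 and 1930.4 to 2378, 3083 and 2573. In all 3 the day 9 libraries lay above the day 6 libraries. These were 3 of the 10 genes, with none falling, where 2.17% of all tested genes changed and 1.1% rose. Rises were 50.5% of the calls, and 31.8% under upper-quartile rescaling. Without replicate 2 at 100% on day 9, or without replicate 2 or replicate 3 of day 6, none passed, and without replicate 1 of day 6 GART alone did.

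The same comparison at the other levels was added after the values were seen. At 12.5% 5 genes rose, against 8.31% of all tested genes changing and 4.9% rising. Rises were 59.0% of the calls, and 37.3% under upper-quartile rescaling. The 5 were IMPDH2, given above, PPAT (0.39, adjusted p = 0.00849), GART (0.37, adjusted p = 0.0221), PAICS (0.33, adjusted p = 0.0283) and GMPS (0.30, adjusted p = 0.0488, lost under 26 of the 38 alternatives). Without replicate 1 at 12.5% on day 6 1 of them passed, without replicate 2 of that day or replicate 1 at 12.5% on day 9 2 did, and without replicate 3 at 12.5% on day 9 3 did. At 50% PPAT alone rose (0.43, adjusted p = 0.0223), against 2.12% changing and 1.05% rising, and without either of the 2 libraries of day 9 or replicate 3 of day 6 it did not pass. At 25% none passed, against 1.1%, and PPAT was 0.32 higher (adjusted p = 0.1104). PRPS1 and PRPS2 passed between days at no level, with changes between -0.16 and 0.11.

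Genes that feed or branch from the pathway were taken from 6 lists. The counts of each list stand beside the shares of all tested genes, of which 13.3% rose and 16.5% fell without histidine, 11.7% rose and 15.3% fell at 12.5% on day 6, and 9.35% rose and 11.5% fell at 12.5% on day 9. The median change over all tested genes lay between 0.03 and 0.04 in these comparisons. Of the accessory and branch genes 5 of 6 were tested. Without histidine on day 6 4 of them fell and none rose, at 12.5% 3 fell, and at 12.5% on day 9 none passed. PRPSAP1, a subunit associated with the PRPP synthetases, was at 1011 ± 35.9 at 100% on day 6 (n = 3) and fell by 0.53 without histidine (adjusted p = 0.00110) and by 0.39 at 12.5% (adjusted p = 0.0151). At 25% it rose, by 0.52 on day 6 (adjusted p = 0.00773) and by 0.42 on day 9 (adjusted p = 0.0118). Its partner PRPSAP2 fell by 0.58 without histidine (adjusted p = 0.00430). ADSS2, the adenylosuccinate synthase of the AMP branch, changed by -0.06 without histidine and by -0.02 at 12.5% on day 6, with neither past the threshold. The muscle-type ADSS1 was low throughout, 35.8 ± 8.81 at 100% and 3.87 ± 6.71 without histidine on day 6.

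Folate genes supply the formyl groups used by GART and ATIC, and 6 of 9 were tested. Without histidine 4 fell and none rose, at 12.5% on day 6 4 fell and at 12.5% on day 9 2 fell, with medians of -0.80, -0.39 and -0.22. MTHFD1, which makes formyl-tetrahydrofolate, fell from 3030 ± 162 at 100% to 1075 ± 135 without histidine, a log2 change of -1.501 (adjusted p = 1.08e-09), and by 0.97 at 12.5% on day 6 (adjusted p = 2.70e-06) and 0.85 on day 9 (adjusted p = 1.85e-05). SHMT1 fell by 1.20 without histidine (adjusted p = 7.92e-08). At 25% on day 6 no gene of this list passed.

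Of the 9 pentose phosphate genes, which supply ribose, 5 fell and 1 rose without histidine, 6 fell and 1 rose at 12.5% on day 6, and 3 fell and 1 rose at 12.5% on day 9. TKT, the transketolase, fell by 0.78 without histidine, by 0.99 at 12.5% on day 6 and by 0.83 on day 9 (adjusted p = 3.54e-06, 3.59e-07 and 4.36e-06). PGD, PGLS, RPIA and PGM2 fell by 0.47 to 0.66 without histidine. RBKS, a ribokinase at a low level, rose there from 11.3 ± 2.83 to 41.9 ± 12.7.

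Salvage and interconversion genes, which reuse bases and nucleosides, gave mixed counts: of 22 tested, 4 rose and 4 fell without histidine, where 13.3% of all tested genes rose and 16.5% fell, 7 fell at 12.5% on day 6, and 1 rose and 4 fell at 12.5% on day 9. The nucleoside transporter SLC29A1 fell by 1.41 without histidine (adjusted p = 7.86e-10), by 1.14 at 12.5% on day 6 (adjusted p = 9.94e-08) and by 0.74 on day 9 (adjusted p = 3.53e-05). PNP, the purine nucleoside phosphorylase, fell by 0.70 at 12.5% on day 9 and by 0.71 on day 6. APRT, the adenine salvage enzyme, rose without histidine by 0.90, from 623 ± 9.31 to 1173 ± 171 (adjusted p = 0.000246), and not at 12.5% (-0.14, adjusted p = 0.605). AK1, at a low level, rose by 1.78 (adjusted p = 0.0341). NT5C and NME2 fell by 1.11 and 0.88 at 12.5% on day 6, and NT5C2, a nucleotidase linked to mercaptopurine resistance, fell by 1.09 at 12.5% on day 9 (adjusted p = 8.08e-05).

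Of the 5 genes of pyrimidine synthesis, which also uses PRPP, 3 fell in each of these comparisons, and DHODH rose without histidine. CAD fell by 0.48, 0.53 and 0.40 without histidine, at 12.5% on day 6 and at 12.5% on day 9. CTPS1 fell by 0.71, 0.58 and 0.67 and CTPS2 by 0.81, 0.48 and 0.73 in the same order.

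Among the regulators MYC, which drives nucleotide synthesis genes, was at 15772 ± 1327 at 100% on day 6 and changed by -0.02 without histidine (adjusted p = 0.871). It fell by 0.24 at 12.5% (adjusted p = 0.0272) and by 0.53 at 25% on day 6 (adjusted p = 0.000201), and passed on day 9 at neither level. MXD4, an antagonist of MYC, rose by 0.96, 0.56 and 0.54 without histidine, at 12.5% on day 6 and at 12.5% on day 9. MTOR fell at 12.5% on day 9 (-0.42, adjusted p = 0.0438). At 50% no gene of the 6 lists passed on either day.

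**Figure D4:**
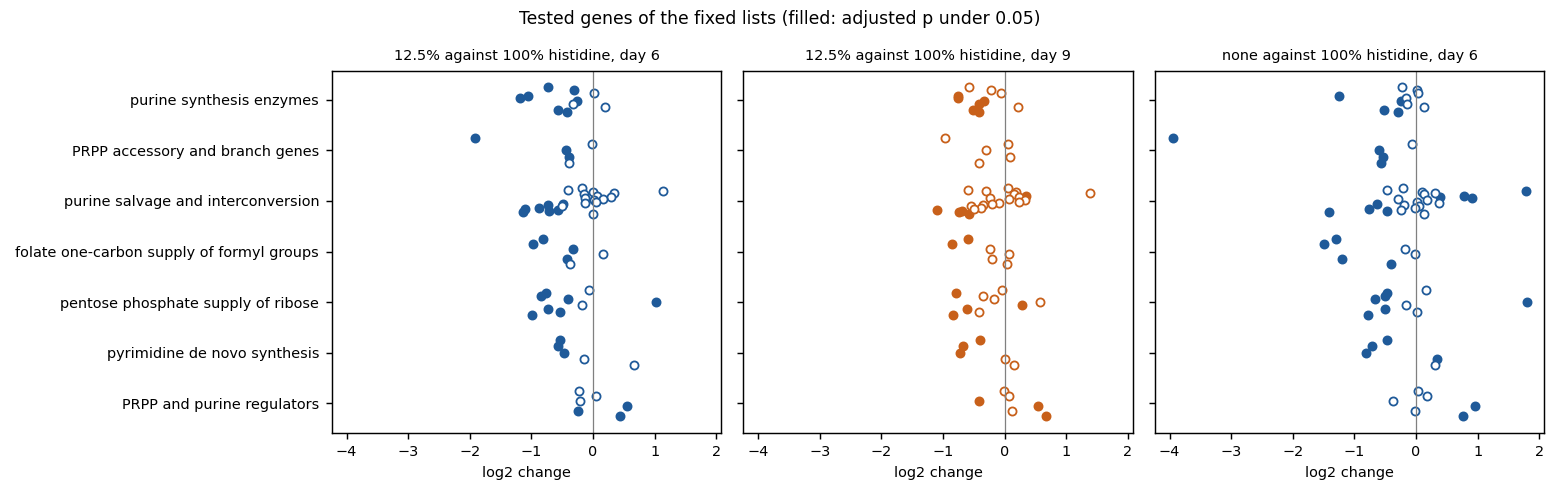
The log2 change (x axis) of each tested gene of the 10 enzymes and the 6 lists (rows) against 100% histidine of the same day, at 12.5% on day 6 and day 9 and without histidine on day 6; each point is a gene and filled points passed an adjusted p of 0.05. Most filled points of the folate, pentose phosphate and pyrimidine lists lie to the left of 0, down to -1.501 for MTHFD1, and among the regulators MXD4 lies to the right in all 3 panels.

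The 7 changes against 100% were also used to find genes moving most like the median of the 10, among the 9814 genes that averaged 100 or more. The nearest were IRAK1, SENP3, HDAC1, SNAP47 and PSME3, with a mean absolute difference of 0.0349 to 0.0392 log2 units over the 7 comparisons, which share their 100% libraries. IRAK1, for example, changed by -0.21 without histidine and by -0.42 at 12.5% on day 6. This is a description of likeness only.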

How the data were processed

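Total RNA of DND-41 cells was sequenced as libraries that keep the strand, per the labels' protocols. Values in the deposited table are signal, namely counts per gene that the authors normalized with DESeq2 1.44.0. The submitters' processing notes also list kallisto 0.50.1, FastQC 0.11.9 and the GRCh38 build. Which annotation release and strand setting were used is not given in the sources used here. Each of the 25 columns was matched to a library by its title. The best single step per library put 37.8% to 76.1% of its values under 20 within 0.05 of a whole multiple. Reads could therefore not be recovered, and no count test was run. Size factors hide any difference in RNA content of the cells, and quantification by transcript divides reads among near-identical copies.

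The 18799 genes reaching 10 normalized counts in 2 or more libraries were tested. A pseudocount of 1 was added before taking log2, which understates changes of low genes. The model (limma 3.58.1, R 4.3.3, mean-variance trend) had 1 mean for each of 9 groups and 16 residual degrees of freedom. P-values are two-sided and adjusted within each of 18 comparisons, of which 13 were planned and 5 added. The procedure was tested on simulated data. The 38 alternatives covered pseudocount, filter, scaling, trend, weights, a replicate block, the groups fitted, each library left out, the keratin-high libraries left out, and keratin or 5_8S_rRNA as a covariate, the latter added after the values were seen. The enzymes, lists, markers and tests were chosen with earlier results of these data known. All 10 enzymes are named, all accessory and branch genes, MYC, and of each other list up to 3 genes with the largest changes past the threshold in none or 12.5% against 100%; DHODH and the extra values of named genes at 25% were given after their values were seen. A few genes within this rule are left out of the text. Positions come from GENCODE 29, possibly another annotation than that of the authors, and shared sequence is the share of 31-base transcript words found in another gene. Plots used matplotlib 3.10.9 (Python 3.11.15).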

Additional observations from a re-analysis of the deposited data

How the results depend on the processing

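Of 6840 single-gene values of the 10 enzymes under the 38 alternatives, 6566 kept direction and side of the threshold, 193 lost the call, 81 gained one and 0 reversed a call. The number of the 10 genes called moved as follows. Without the keratin-high libraries, which leaves 1 library each at 100% and 50% on day 6 and at 25% on day 9, assumed to vary like the other groups, it was 2 for no histidine, 4 for 12.5% and 2 for 25% on day 6, 3 for 25% on day 9, 0 for day 9 against day 6 at 100%, 4 for the day 6 slope and 0 for 12.5% against 25% on day 9. With keratin as a covariate it was 3 for 25% on day 6, 5 for 12.5% against 25% on day 6 and 0 on day 9, and with 5_8S_rRNA 4 for 12.5% on day 6 and 0 for 12.5% against 25% on day 9. For no histidine against 12.5% it was 2 with a pseudocount of 8, a filter at 50, upper-quartile rescaling or quantile normalization and 5 with library weights. For 12.5% against 25% on day 6 it was 5 with a filter at 50 or either rescaling and 6 with weights, and on day 9 it was 3 with a filter at 50, upper-quartile rescaling, weights or only the groups compared. For day 9 against day 6 it was 0 at 50% with only the groups compared, 1 at 25% with weights, and at 12.5% 3 with either rescaling or no trend and 2 with only the groups compared. The cause of these shifts was not tested. The shares of all tested genes called under the same alternatives are not set beside these counts or those that follow. The counts therefore describe only how stable the calls were.

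Leaving out 1 library at a time gave 2 to 4 genes for no histidine, 4 to 8 for 12.5% and 2 to 5 for 25% on day 6, 4 to 7 for 12.5% and 4 to 6 for 25% on day 9, 1 to 3 for no histidine against 12.5%, 6 to 9 for each slope, 2 to 5 and 0 to 3 for 12.5% against 25% on days 6 and 9, and 0 to 3, 0 to 1 and 1 to 7 for day 9 against day 6 at 100%, 50% and 12.5%. The no-histidine count was 2 without replicate 1 or 3 at 100% or replicate 1 of the no-histidine group. The 12.5% count on day 6 was 4 without replicate 2 at 12.5%. The 25% count on day 6 was 2 without replicate 2 at 25%, and 3 without replicate 3 at 25% or replicate 3 at 100%. For 12.5% against 25% on day 6 it was 5 without replicate 3 at 12.5%. Upper-quartile rescaling moved the median of all genes from 0.04 to 0.12 at 12.5% on day 6 and from -0.01 to -0.11 between days at 50%. It took the share of rises among calls from 43.3% to 54.5% at 12.5% on day 6, from 39.8% to 51.8% and from 35.3% to 46.4% for 12.5% against 25% on days 6 and 9, and from 49.4% to 21.8% and 55.8% to 32.0% between days at 50% and 25%.

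Replicate numbers are shared between groups but do not pair libraries: same-number correlations of deviations lay between -0.0841 and 0.0789. With a replicate block the count of the 10 genes was 3 for no histidine, 6 for 12.5% and 5 for 25% on day 6, and 6 each for 12.5% and 25% on day 9. The depth of the libraries is known only as normalized totals, which limits what can be said of small differences.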
